A study of Mus musculus with 8 samples.

Results

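The 10 genes Ctsb, Ctsk, Ctsl, Ctsz, Lgmn, Ctsd, Lamp1, Psap, Grn and Npc2, which encode lysosomal proteases and proteins of lysosomal storage and breakdown, were looked up by symbol in a table of cluster markers from single-cell RNA-seq. All 10 had at least 1 entry, and they are 10 of the 3903 gene symbols in the table. The cells were preadipocytes cultured from the inguinal white fat of C57BL/6 mice, either wild type (WT) or with the genotype Hmgn1-/- and Hmgn2-/- (double knockout, DKO). HMGN1 and HMGN2 are nuclear proteins that bind nucleosomes. The 8 samples formed 4 groups of 2 cultures, WT day 0, DKO day 0, WT day 6 and DKO day 6. Day 0 cells were preadipocytes before induction. Day 6 cells had been induced for 4 days with 1 μM rosiglitazone, 1 nM T3, 0.5 mM IBMX, 5 μM dexamethasone and 0.5 μg/ml insulin, and were then kept in insulin and T3. The study's methods call this in vitro browning, the conversion of white preadipocytes into brown-like adipocytes.

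Lysosomes are acidic compartments in which proteins, lipids and sugars are broken down by hydrolases. Most of these enzymes are made as inactive precursors, reach the lysosome through the secretory route and are matured by cleavage at low pH, although some cathepsins are also secreted and act on matrix proteins outside the cell. Fibroblast-like cells use them to turn over endocytosed collagen, and fat cells use lysosomes for the breakdown of cell components and of part of their lipid. Among the members, Ctsb, Ctsk, Ctsl and Ctsz are cysteine cathepsins, Lgmn is a cysteine protease that cuts after asparagine and helps to mature other proteases, and Ctsd is an aspartic protease. Lamp1 is an abundant glycoprotein of the lysosomal membrane. Psap is the precursor of the saposins, which help enzymes to reach sphingolipids, Grn is the precursor of the granulins, and Npc2 hands cholesterol to the lysosomal membrane for export.

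The table compares each of 12 clusters, numbered 0 to 11, with all other cells, pooled over genotypes, days and cultures. A log2 fold change here is the log2 ratio of mean normalised expression (plus a pseudocount of 1) inside the cluster to that in all other cells. Detection is the percentage of cells in which at least 1 transcript of the gene was counted. No value belongs to 1 sample, so none has a replicate error, no DKO with WT or day 6 with day 0 comparison could be made, and no test is given. An entry is present where the log2 fold change is at least 0.25 in absolute size, the gene was detected in at least 10% of the cells inside or outside the cluster, and the deposited MAST p-value over cells is at most 0.01. A member without an entry in a cluster missed 1 of these limits there, which is not a level of 0. The number of cells and reads behind each value is unknown. Clusters are given by number and by their 2 leading genes by log2 fold change.

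The members were most often higher in clusters 1 and 3 and most often lower in cluster 11. In cluster 3 (Spp1, Ccl8), 9 of the 10 members were listed as higher and 0 as lower, against 6.33% of all genes listed as higher there and 4.61% as lower. In cluster 1 (Cxcl14, Mmp3), 6 members were listed as higher and 0 as lower, against 11.5% of all genes higher and 7.15% lower. In cluster 11 (Car3, Fabp5), 9 were listed as lower and 0 as higher, against 38.1% of all genes lower and 25.6% higher. For the members listed, the median log2 fold change was 0.56 (cluster 3), 0.49 (cluster 1) and -0.63 (cluster 11), beside 0.29, 0.29 and -0.30 over all genes listed. Of the 120 combinations of member and cluster, 67 had an entry, 24 higher and 43 lower. Among the 1821 genes detected in at least 50% of all cells, 9.72% were higher in cluster 3, 15.7% higher in cluster 1 and 43.7% lower in cluster 11. With the deposited adjusted p below 0.05, 5 members were higher in cluster 3, and at a minimum log2 fold change of 0.5, 2 were higher in cluster 1. With entries whose detection fell as well, 3 were lower in cluster 11.

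**Figure D1:**
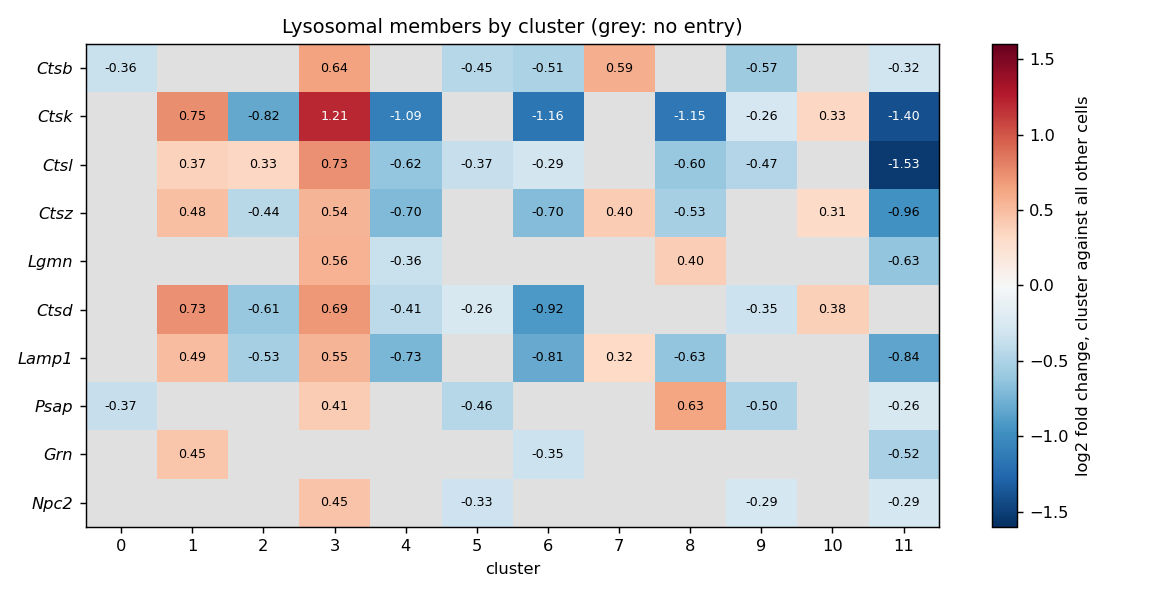
Log2 fold change of each member (rows) in each cluster (columns) against all other cells, from blue (lower) to red (higher), with the value printed and grey where the table has no entry. The columns of clusters 1 and 3 hold no lower entry and that of cluster 11 no higher entry, with Ctsl at -1.53 and Ctsk at -1.40 the lowest of all.

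The clusters with proliferation genes in front listed the members as lower only. Cluster 5 (Hist1h1b, Pclaf) listed 5 as lower (7.33% of all genes), cluster 6 (Hist1h1b, Top2a) listed 7 (18.2%) and cluster 9 (Ube2c, Cenpf) listed 6 (5.33%). None was higher in these clusters, where 19.8%, 18.1% and 18.7% of all genes were listed as higher. All 4 proliferation markers looked up (Mki67, Top2a, Cenpf and Ube2c) were higher in these 3 clusters. Each member listed in clusters 5 and 9 was detected in more cells inside the cluster than outside, such as Ctsl in cluster 5 (99.9% against 94.1%), and so was each in cluster 6 except Ctsk. This was common there, as only 13.8%, 25.2% and 7.36% of all genes listed in clusters 5, 6 and 9 were detected less inside. With entries whose detection fell as well, the lower counts in clusters 5, 6 and 9 were 0, 1 and 0, and with the deposited adjusted p below 0.05 they were 2, 5 and 2. The members differed among these clusters. Ctsb, Ctsl and Ctsd were lower in all 3, Psap and Npc2 were listed in clusters 5 and 9 and not in 6, while Ctsz, Lamp1 and Grn were listed in cluster 6 and in neither of the others. Ctsk was lower in clusters 6 and 9.

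The remaining clusters held fewer or mixed entries. Cluster 7 (Ogn, Hp) listed Ctsb, Ctsz and Lamp1 as higher and 0 as lower, against 9.68% of all genes higher and 4.15% lower. Cluster 8 (Gsn, Peg3) listed 2 as higher (9.45%) and 4 as lower (19.4%). Cluster 2 (Ctla2a, A2m) listed 1 as higher (9.1%) and 4 as lower (19.9%). Cluster 0 (Thbs1, Tagln) listed Ctsb and Psap as lower (5.33%) and 0 as higher (12.5%). In cluster 4 (AY036118, Gm42418), none was higher (13.9% of all genes) and 6 were listed as lower, against 39.1% of all genes and 58.3% of the 1821 genes detected in at least 50% of all cells, as the members are. The count in cluster 4 is thus close to that of other well-detected genes. Cluster 10 (Gm26917, S100a4) listed 3 as higher, against 6.17% of all genes, and 0 as lower, against 12.2%.

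**Figure D2:**
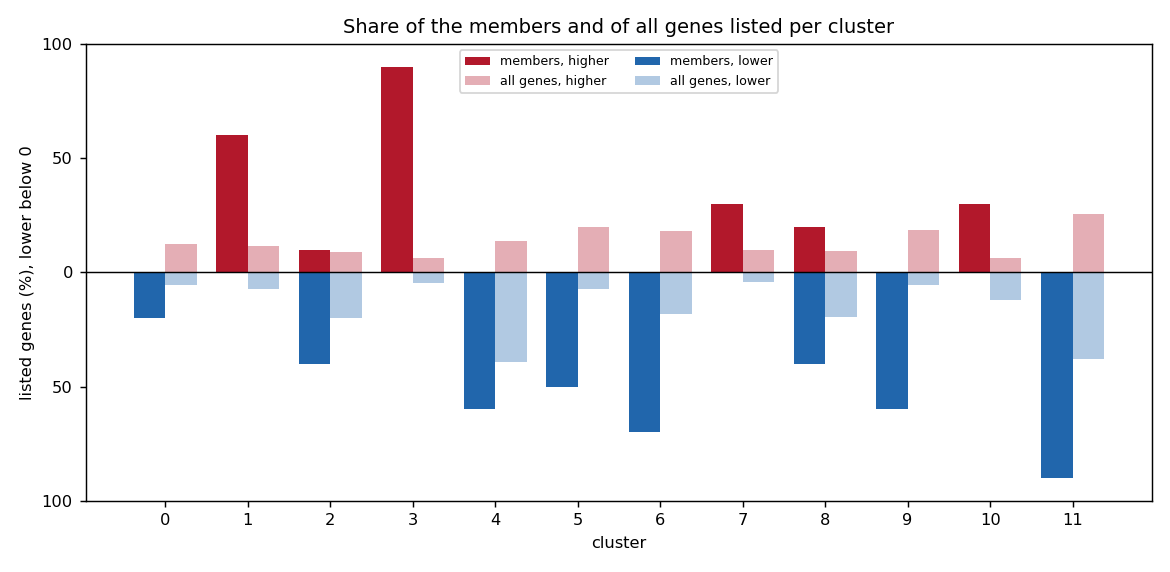
Percentage of the 10 members (dark bars) and of all 3903 genes (pale bars) listed as higher (above 0, red) or lower (below 0, blue) in each cluster. The member bars reach 90% upward in cluster 3 and 90% downward in cluster 11, beside 6.33% and 38.1% of all genes.

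Clusters 4 and 10 stood apart in detection, and this touches each member value there. The genes listed for cluster 4 had a median detection of 10.8% inside it and 63.0% in the other cells, and those for cluster 10 had 8.1% and 62.4%. The 6 members listed in cluster 4 were detected in 5.0% to 63.2% of its cells, against 64.5% to 97.9% elsewhere. In cluster 10, Ctsd, Ctsk and Ctsz had log2 fold changes of 0.38, 0.33 and 0.31. Their detection there was 31.1%, 16.8% and 26.2%, below the 87.7%, 60.1% and 84.2% of the other cells. Such a pair of a higher mean and a lower detection was seen for 240 of the 241 higher genes of cluster 10 and for 500 of 544 in cluster 4, and for 0 in the other 10 clusters. The part of low detection in the member values of these 2 clusters was not tested.

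Ctsk, best known as the collagen-degrading cathepsin of osteoclasts and also made by fibroblasts, varied most. Its gene lies on chromosome 3 (95499256 to 95509362, plus strand, GRCm38). Its log2 fold change was positive in clusters 3 (1.21), 1 (0.75) and 10 (0.33) and reached its most negative values in clusters 11 (-1.40), 6 (-1.16), 8 (-1.15) and 4 (-1.09), before clusters 2 (-0.82) and 9 (-0.26). Detection moved over the widest range of the 10 members. Beside 58.8% of all cells, the transcript was found in 88.5% (cluster 3), 86.6% (cluster 1), 74.9% (cluster 9), 41.6% (cluster 2), 33.8% (cluster 6), 25.1% (cluster 8) and 11.5% (cluster 11). The order of clusters by detection and by fold change was thus the same at both ends, with clusters 3 and 1 first and cluster 11 last among the clusters outside 4 and 10. Outside cluster 10, the 2 readouts parted in cluster 9 alone, where Ctsk had a lower mean and was detected in 74.9% against 57.7% elsewhere. In clusters 0, 5 and 7, which have no Ctsk entry, the detection worked out from the rest of the table averaged 76.3%.

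Ctsl, an endopeptidase of broad specificity (chromosome 13, 64359337 to 64370890, minus strand), was listed in 8 clusters besides cluster 4. It was detected in 98.4% to 99.9% of their cells, so presence in a cell hardly separated these 8 clusters. In clusters 0, 7 and 10, which have no Ctsl entry, the detection worked out from the rest of the table averaged 93.5%. The log2 fold change was highest for cluster 3 (0.73), followed by clusters 1 (0.37) and 2 (0.33), and it was below 0 for clusters 6 (-0.29), 5 (-0.37), 9 (-0.47), 8 (-0.60) and 4 (-0.62). The value in cluster 11, -1.53, was the lowest of all 67 member entries. It corresponds to 0.346 of the level in the other cells with the pseudocount included on both sides, although 98.4% of the cells of cluster 11 still had the transcript. Ctsl was the only member listed as higher in cluster 2, where Ctsk, Ctsd, Lamp1 and Ctsz were lower.

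Ctsz, a carboxypeptidase of the cathepsin family (chromosome 2, 174427493 to 174439039, minus strand), followed Ctsk with smaller changes. It was higher in clusters 3 (0.54), 1 (0.48), 7 (0.40) and 10 (0.31). It was lower in clusters 2 (-0.44), 8 (-0.53), 6 (-0.70), 4 (-0.70) and 11 (-0.96). Detection was 96.6%, 94.3% and 92.9% for clusters 1, 3 and 7, and 87.1%, 84.7%, 80.8% and 76.6% for clusters 6, 2, 8 and 11. The clusters with higher Ctsz outside cluster 10 all lay above those with lower Ctsz in detection.

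Ctsb, an abundant endo- and exopeptidase (chromosome 14, 63122462 to 63145923, plus strand), behaved otherwise. It was higher in clusters 3 (0.64) and 7 (0.59) only, with no entry in cluster 1. Lower values were listed for clusters 9 (-0.57), 6 (-0.51), 5 (-0.45), 0 (-0.36) and 11 (-0.32). Its detection in these 7 clusters was 95.4% to 98.7%, so that presence in a cell did not separate them.

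Lgmn, the asparaginyl endopeptidase (chromosome 12, 102394084 to 102439813, minus strand), had 4 entries. It was higher in cluster 3 (0.56, detected in 78.0% of cells against 60.7% elsewhere) and in cluster 8 (0.40, 77.2% against 61.6%). It was lower in cluster 11 (-0.63, 57.2% against 62.6%) and in cluster 4 (-0.36, 10.1% against 68.1%). Lgmn and Psap were the 2 members higher in cluster 8, in which Ctsk, Lamp1, Ctsl and Ctsz were lower.

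**Figure D3:**
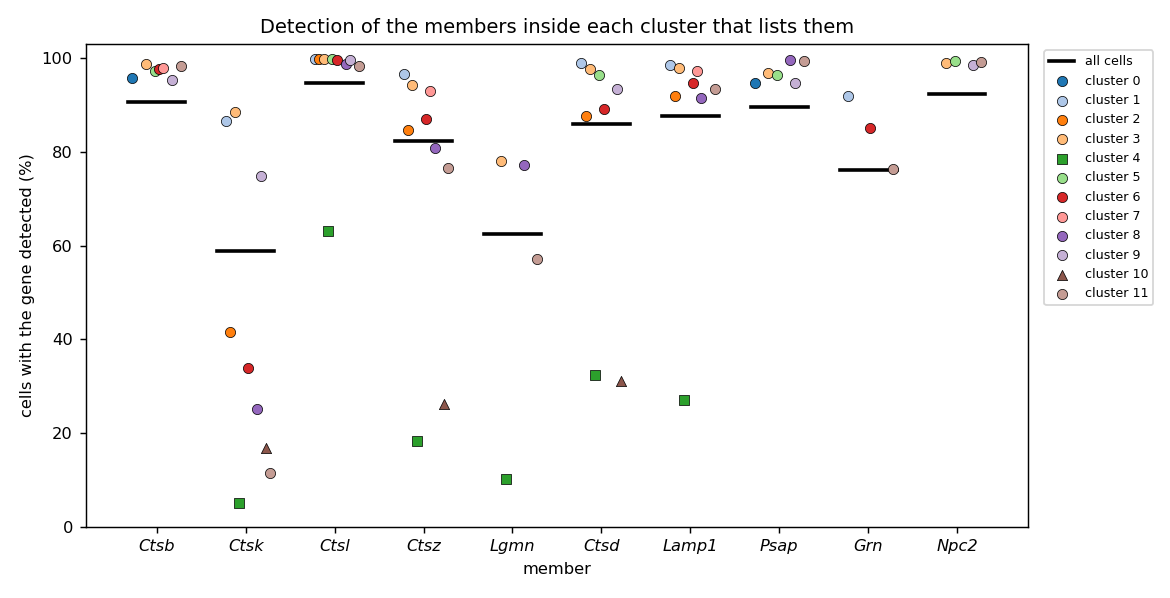
Percentage of cells with each member detected (y axis) inside each cluster that lists it (coloured points, with squares for cluster 4 and triangles for cluster 10) and over all cells (black line). Ctsk spreads from 5.0% to 88.5%, while the points of Ctsb, Psap and Npc2 all lie between 94.6% and 99.5%. Unlike Ctsk, these have no entry in clusters 4 and 10. Over their clusters without an entry, detection averaged 83.0% (Ctsb), 83.8% (Psap) and 90.2% (Npc2).

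Ctsd, the main aspartic protease of lysosomes (chromosome 7, 142375911 to 142388038, minus strand), was highest in cluster 1 (0.73) and nearly as high in cluster 3 (0.69). With no replicate error these 2 values cannot be ranked. It was lowest in cluster 6 (-0.92) and lower in clusters 2 (-0.61), 4 (-0.41), 9 (-0.35) and 5 (-0.26). Ctsd was the 1 member with no entry in cluster 11. Detection stood at 98.9% and 97.6% for clusters 1 and 3, and at 96.4%, 93.4%, 89.2% and 87.7% for clusters 5, 9, 6 and 2.

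Lamp1 (chromosome 8, 13159161 to 13175338, plus strand) was higher in clusters 3 (0.55), 1 (0.49) and 7 (0.32). It was lower in clusters 11 (-0.84), 6 (-0.81), 4 (-0.73), 8 (-0.63) and 2 (-0.53). The transcript was found in 98.5% of the cells of cluster 1, 97.8% of cluster 3 and 97.3% of cluster 7, and in 94.7% of cluster 6, 93.5% of cluster 11, 91.8% of cluster 2 and 91.5% of cluster 8. Each of these clusters was above the 87.6% of all cells, also those with a lower mean. Lamp1 and Ctsz shared 8 clusters with an entry, with the same direction in each, and their log2 fold changes had a Pearson r of 0.98 over the 12 clusters when clusters without an entry were set to 0. For Lamp1 and Ctsk this r was 0.96, and for Ctsk and Ctsz 0.96. These are descriptions over clusters that share the same cells as background.

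The 3 genes of storage and lipid handling moved less. Psap (chromosome 10, 60277627 to 60302597, plus strand) was highest in cluster 8 (0.63, detected in 99.5% of cells) and was also higher in cluster 3 (0.41, 96.8%). Its negative values were -0.50, -0.46, -0.37 and -0.26 for clusters 9, 5, 0 and 11, at a detection of 94.6% to 99.3%. Its Pearson r over the 12 clusters was -0.03 with Lamp1, and larger with Npc2 (0.72) and Ctsb (0.65). Npc2 (chromosome 12, 84754562 to 84773152, minus strand) was higher in cluster 3 (0.45) and lower in clusters 5 (-0.33), 9 (-0.29) and 11 (-0.29), and was detected in 98.5% to 99.3% of the cells of these 4 clusters. Its largest and smallest values were 0.78 apart on the log2 scale, the narrowest span of the members, against 2.61 for Ctsk. Grn (chromosome 11, 102430315 to 102437048, plus strand) had 3 entries, higher in cluster 1 (0.45, 92.0% of cells) and lower in clusters 6 (-0.35, 85.1%) and 11 (-0.52, 76.3%). It was the 1 member with no entry in cluster 3.

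The fold changes were also turned into levels relative to all cells, with the share of each cluster solved from the detection values. On this scale, where 1 is the mean of all cells with the pseudocount included, Ctsk stood at 2.04 and 1.53 for clusters 3 and 1, and at 0.467 and 0.382 for clusters 6 and 11. Ctsl went from 1.55 in cluster 3 to 0.349 in cluster 11. Lamp1 spanned 1.39 to 0.561 between the same clusters, and Psap spanned 1.50 in cluster 8 to 0.720 in cluster 9. The mean level in the clusters without an entry lay between 0.945 (Ctsd) and 1.08 (Lamp1) for the 10 members. A mean near 1 was in part built in here, as fold changes under the minimum give no entry and the levels average 1. Cluster 11 made up 1.50% of all cells, cluster 3 made up 10.4% and cluster 1 made up 14.1%.

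The detection outside a cluster includes the poorly detected cells of cluster 4, which made up 9.59% of all cells. For the 6 members listed in cluster 4, its cells were therefore taken out of the comparison, a step chosen after the values had been seen. These 6 are all lower and less detected in cluster 4, so its removal raised the mean and the detection outside. The lower entries could therefore not change direction, and only the higher ones could have done so or dropped under 0.25. All 41 of their other entries kept the direction of the fold change, with a largest shift of 0.091 on the log2 scale, and 0 of them dropped under 0.25. Detection changed more. It went the same way as the fold change for 22 of the 41 entries at first and for 29 without cluster 4. This rise was in part built in, as lower entries could only move toward such agreement and higher entries only away from it. Lamp1 in cluster 2, for example, was detected in 91.8% of the cells against 87.0% outside, and against 94.3% outside once cluster 4 was removed. Ctsd in cluster 6 was detected in 89.2% against 85.6%, and against 91.8% without cluster 4.

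The transcription factors TFEB and TFE3 are known to bind E-box sequences with the core CACGTG in promoters of lysosomal genes. Promoter windows of 300 bases (250 before and 50 after each RefSeq start, GRCm38.p6) were found for 9 members, 11 windows in all, and Ctsb had none. The core CACGTG, which reads the same on both strands, occurred in a window of Lamp1, Ctsd, Ctsl and Lgmn, 4 of the 9 members. It was in 4 of their 11 windows, and in 7.15% of all 32851 windows. For Lgmn, the window with the copy (250 bases at 102439093 to 102439342) lies inside the gene. The other Lgmn window, at 102439729 to 102439978 and across the gene's annotated start, has 0 copies. The Ctsl window, at 64370521 to 64370770, also lies inside its gene. The longer form TCACGTGA, which contains the core and also reads the same on both strands, occurred in Ctsd alone, and in 0.974% of all windows. The 250 bases before the start are shown for Lamp1, which has the most copies, for Ctsd, which has the longer form, and for Ctsk, the member with the widest range and with no copy. The core is in capitals, and each sequence is read on the strand of its gene.
Lamp1, chr8:13158911-13159160, plus strand: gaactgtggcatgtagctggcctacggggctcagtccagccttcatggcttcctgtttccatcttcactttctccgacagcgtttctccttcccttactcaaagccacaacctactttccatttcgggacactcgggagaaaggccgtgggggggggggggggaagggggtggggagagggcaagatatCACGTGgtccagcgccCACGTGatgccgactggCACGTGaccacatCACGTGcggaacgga
Ctsd, chr7:142387828-142388077, minus strand: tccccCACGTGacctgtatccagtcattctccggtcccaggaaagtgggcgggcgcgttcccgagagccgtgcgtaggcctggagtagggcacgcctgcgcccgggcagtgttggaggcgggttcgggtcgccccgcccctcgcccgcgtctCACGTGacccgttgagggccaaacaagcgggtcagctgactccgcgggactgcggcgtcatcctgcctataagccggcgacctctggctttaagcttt
Ctsk, chr3:95498960-95499209, plus strand: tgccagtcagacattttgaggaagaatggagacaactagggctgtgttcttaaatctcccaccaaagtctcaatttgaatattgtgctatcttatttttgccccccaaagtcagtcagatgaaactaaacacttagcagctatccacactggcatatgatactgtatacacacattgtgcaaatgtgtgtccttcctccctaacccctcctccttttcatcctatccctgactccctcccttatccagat

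In Lamp1, the 4 copies began 61, 45, 28 and 15 bases before the start. In Ctsd, the 2 copies began 245 and 98 bases before it, and the nearer lies in the longer form. The members without the core in these windows were Ctsk, Ctsz, Psap, Grn and Npc2. Lamp1 has 4 copies, while Ctsk and Ctsz, whose fold changes followed those of Lamp1, have 0. Whether copies of the core bear on the fold changes was not tested. A match is a stretch of letters and not a measured binding site, and binding to these windows was not analysed here.

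Other genes of the lysosome were counted from lists that cover proteases, glycosidases and sulfatases, lipid handling, membrane proteins, the proton pump, sorting, cathepsin inhibitors and transcription factors. Of the 82 genes, 38 had an entry. In cluster 1, 20 of the 38 were higher and 0 lower, and in cluster 3, 16 were higher and 1 lower. In cluster 11, 29 were lower and 4 higher, in cluster 4, 25 were lower and 1 higher, and in cluster 6, 22 were lower and 1 higher. As shares of the 38, 52.6% were higher in cluster 1 (11.5% of all genes) and 42.1% in cluster 3 (6.33%), while 76.3% were lower in cluster 11 (38.1%), 65.8% in cluster 4 (39.1%) and 57.9% in cluster 6 (18.2%). Among the genes detected in at least 50% of all cells, 58.3% were lower in cluster 4, a share close to that of the list. Clusters 5 and 9 listed 1 gene each, Lamp2, as lower (-0.38 and -0.44), whereas 5 and 6 of the 10 members were lower there.

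**Figure D4:**
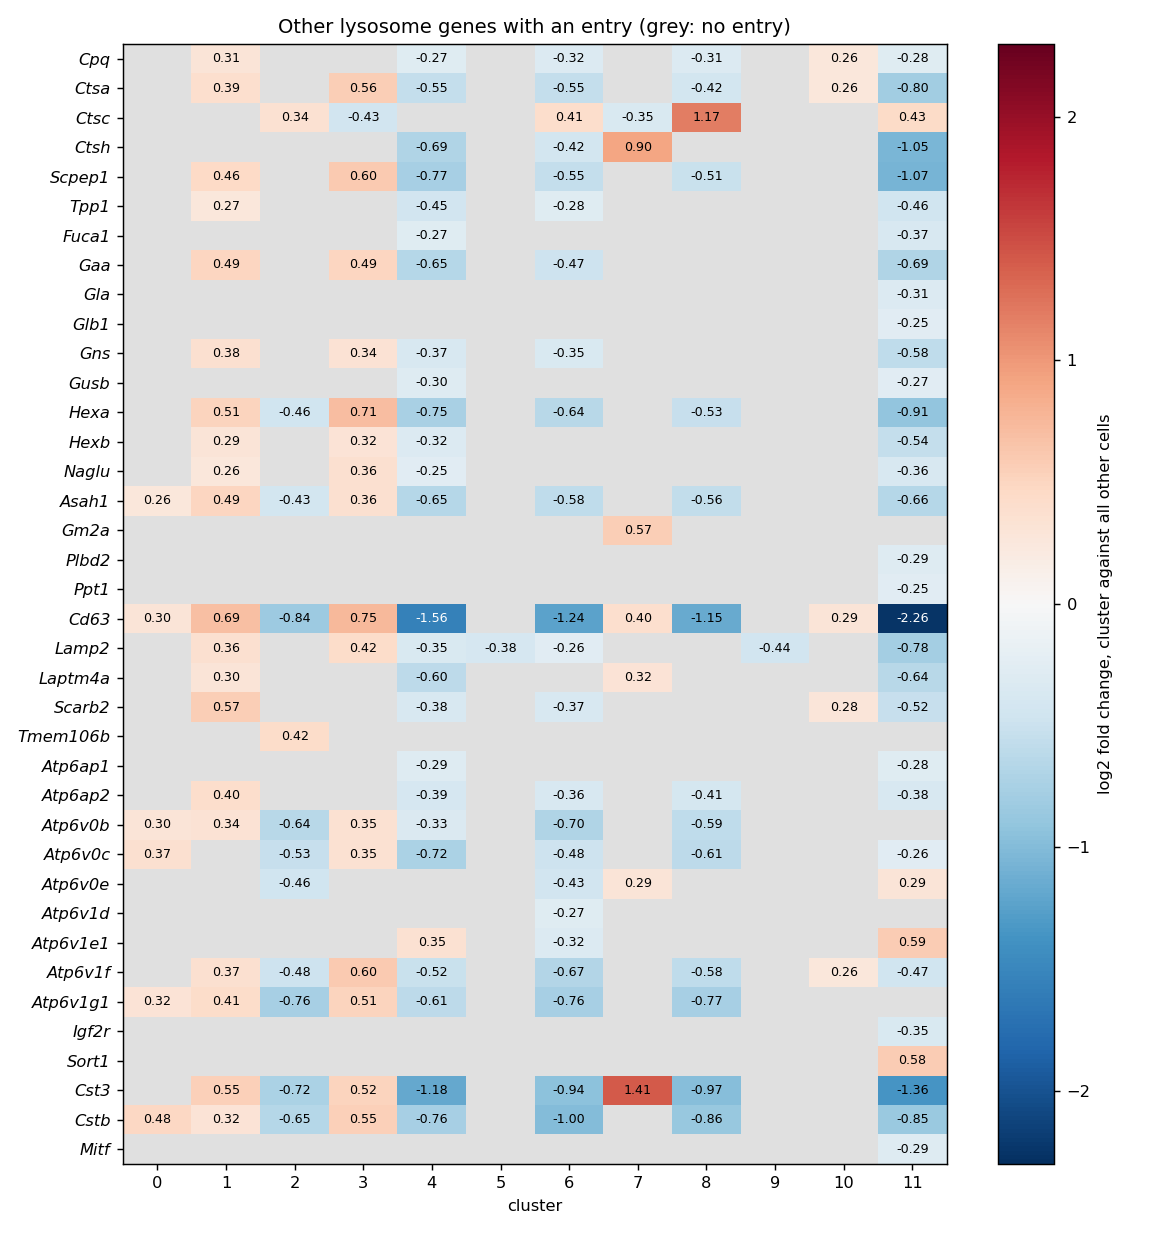
Log2 fold change of the 38 other lysosome genes with an entry (rows, ordered by list) in each cluster (columns) against all other cells, with grey where there is no entry. Of the 38 genes, 20 are red in cluster 1 and 16 in cluster 3, where 21 are grey, while 25, 22 and 29 are blue in clusters 4, 6 and 11, and clusters 5 and 9 hold Lamp2 alone.

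Among the proteases, 4 of the 6 with an entry were higher in cluster 1 (11.5% of all genes) and 5 were lower in cluster 11 (38.1%). Scpep1, a serine carboxypeptidase, had the lowest value, -1.07 in cluster 11 (49.1% of cells against 73.0%). Ctsc, the dipeptidyl peptidase that activates granule proteases in immune cells, went against the other proteases, with 1.17 in cluster 8 (71.0% against 15.6%), 0.43 in cluster 11 and -0.43 in cluster 3. Of the 9 glycosidases and sulfatases with an entry, 5 were higher in cluster 1, 5 in cluster 3 and 9 were lower in cluster 11, against 11.5%, 6.33% and 38.1% of all genes. Hexa, the alpha subunit of beta-hexosaminidase, held both extremes, with 0.71 in cluster 3 and -0.91 in cluster 11.

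In lipid handling, Asah1, acid ceramidase, was lowest in cluster 11 (-0.66), and Gm2a, the activator of ganglioside breakdown, was highest in cluster 7 (0.57), its 1 entry. Cd63, a tetraspanin of late endosomes, lysosomes and exosomes, ran from 0.75 in cluster 3 to -2.26 in cluster 11, with a detection of 100% and 96.4%. The proton pump, which acidifies the lysosome, had 9 of its 15 genes listed. Of these, 8 were lower in cluster 6 (18.2% of all genes) and 5 in cluster 8 (19.4%). Atp6v1g1 was lowest (-0.77 in cluster 8) and Atp6v1f highest (0.60 in cluster 3). In cluster 11, 4 of the 9 were lower and 2 higher, close to the shares over all genes (38.1% lower and 25.6% higher). Of the sorting genes, Sort1, the sortilin receptor, was higher in cluster 11 (0.58, 68.3% of cells against 3.9%), and Igf2r, a mannose 6-phosphate receptor, was lower there (-0.35). Mitf was the 1 transcription factor of the 3 with an entry (-0.29 in cluster 11, 13.1% against 22.0%).

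The 2 cathepsin inhibitors with an entry were Cst3, the secreted cystatin C, and Cstb, the intracellular cystatin B. Cst3 was higher in clusters 1 (0.55), 3 (0.52) and 7 (1.41). It was lower in clusters 2 (-0.72), 6 (-0.94), 8 (-0.97), 4 (-1.18) and 11 (-1.36). Cstb was higher in clusters 0 (0.48), 1 (0.32) and 3 (0.55), and lower in clusters 2 (-0.65), 4 (-0.76), 11 (-0.85), 8 (-0.86) and 6 (-1.0). Both thus had the direction of Ctsk in clusters 1, 2, 3, 4, 6, 8 and 11.

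The genes whose pattern was most like that of the members were then ranked among 821 other genes with entries in at least 6 clusters. Likeness was the Pearson r over the 12 clusters between a gene and the median of the members, with clusters without an entry set to 0. The first 5 were Lamp2 (0.94), a second glycoprotein of the lysosomal membrane, Tmem59 (0.89), a membrane protein, Scpep1 (0.88), Ctsa (0.88), which protects other lysosomal enzymes, and C1s1 (0.88), a complement protease. Lamp2, Scpep1 and Ctsa were on the lists above. All 5 were higher in clusters 1 and 3 and lower in clusters 4, 6 and 11. Lamp2 ranged from 0.42 in cluster 3 to -0.78 in cluster 11.

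Lysosomal genes are abundant in macrophages, and Ctsk in osteoclasts, so markers of both were looked up. Of 11 macrophage markers, among them Adgre1, Csf1r, Ptprc and Cd68, and of 4 osteoclast markers, 0 had an entry in any cluster, which does not give their level, as was the case for the endothelial and glial markers. Per the study's methods, immune cells had been removed before clustering. Of 7 adipocyte markers, 7 were higher in cluster 11 (25.6% of all genes), with Fabp4 at 3.56 and Adipoq at 2.37. The same 7 were higher in cluster 4 (13.9% of all genes), 6 in cluster 8 (9.45%) and 4 in cluster 6 (18.1%). None was lower in these clusters. In cluster 1, 7 were lower (7.15% of all genes) and 0 higher. In cluster 3, 5 were lower (4.61% of all genes) and 1, Lpl, was higher, with a log2 fold change of 0.51. The markers did not follow the members throughout. In clusters 0, 2, 5 and 9, which list more members as lower than as higher, 6, 5, 6 and 4 of the 7 markers were lower and 0 higher. The shares of all genes lower there were 5.33%, 19.9%, 7.33% and 5.33%. Of the 5 preadipocyte markers with an entry, 3 were higher in cluster 1 (11.5% of all genes) and 2 in cluster 3 (6.33%), with 0 lower. In cluster 11, 5 were lower (38.1% of all genes) and 0 higher. Their directions were mixed in cluster 0, with 2 higher and 1 lower, and in cluster 8, with 1 higher and 3 lower. Mmp3 was higher in clusters 1 (2.26) and 3 (1.11) and lower in clusters 0 (-1.37) and 11 (-2.58). Whether the members followed the state of the cells was not tested.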

How the data were processed

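Single-cell RNA was captured from 8 cultures with a 3′ droplet chemistry. The methods of the study state that the authors aligned reads to mm10 using Cell Ranger 6.0.0, equalised depth between captures, kept cells with at least 500 genes and at most 10% mitochondrial expression, log-normalised the values with Seurat, took out cells of immune, glial or endothelial type, and formed 12 clusters at a resolution of 0.6. Removal of doublets is not given in the sources used here. The deposited log2 fold changes and MAST p-values compare each cluster with the rest. The deposited detection fractions are printed as percents. The p-values treat cells as replicates. The authors listed only entries with p at most 0.01 over cells and detection of at least 10% on 1 side, so every count rests on these limits, and the adjusted p-values were used here in 1 alternative.

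From these values, with Python 3.11.15, numpy 2.4.6 and pandas 2.3.3, entries were counted when their log2 fold change reached 0.25 in absolute size. The share of each cluster was solved by least squares from the 10 genes listed everywhere, checked on simulated data, and used for relative levels, log2 fold changes being undone with the pseudocount of 1. The detection over all cells came out equal within 0.2 points from each cluster for 2687 of 2687 genes listed at least in a pair of clusters. Gene positions are from GENCODE M21 (GRCm38, the assembly also called mm10) and promoters from RefSeq. A spreadsheet program had turned 7 symbols into dates, none of them a member. Unused columns of samples numbered 0.

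The members and lists were chosen with earlier results of these data known. The named genes were all 10 members, the extremes of each further list, the listed cathepsin inhibitors, the 5 genes most like the members, and cell type markers in the clusters described.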

Additional observations from a re-analysis of the deposited data

How the results depend on the processing

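No paired analysis was possible because values of single samples are not part of the table, and for the same reason no replicate could be left out. Counts of members fell with a higher minimum by construction. At a minimum of 0.5, the members higher in clusters 0 to 11 numbered 0, 2, 0, 7, 0, 0, 0, 1, 1, 0, 0 and 0 and those lower 0, 0, 3, 0, 4, 0, 5, 0, 4, 1, 0 and 6. At a minimum of 1, the members higher in clusters 0 to 11 numbered 0, 0, 0, 1, 0, 0, 0, 0, 0, 0, 0 and 0 and those lower 0, 0, 0, 0, 1, 0, 1, 0, 1, 0, 0 and 2. With the deposited adjusted p below 0.05, which is computed over cells, the members higher in clusters 0 to 11 numbered 0, 4, 0, 5, 0, 0, 0, 1, 1, 0, 3 and 0 and those lower 0, 0, 1, 0, 6, 2, 5, 0, 3, 2, 0 and 7. With entries whose detection moved with the fold change, the members higher in clusters 0 to 11 numbered 0, 6, 1, 9, 0, 0, 0, 3, 2, 0, 0 and 0 and those lower 0, 0, 1, 0, 6, 0, 1, 0, 2, 0, 0 and 3. A detection of at least 50% on either side changed no count, and could not, as each member was detected in more than 50% of all cells. Among genes detected in at least 50% of all cells, the background was 20.2, 15.7, 11.6, 9.72, 12.2, 23, 14.4, 11.3, 10.5, 25.3, 9.17 and 22.5% higher and 5.49, 7.19, 30.8, 4.56, 58.3, 9.61, 26.6, 5.66, 25.9, 7.47, 16.3 and 43.7% lower. The cluster with the highest value remained for 6 of 10 members when ranked on the detection difference or on detection inside the cluster, and became cluster 1 for Ctsl, Ctsz and Lamp1 and cluster 5 for Npc2. Without clusters 4 and 10 it remained for 10 of 10 by construction, as no member had its highest value there. Outside the first 5 by likeness were then Scpep1 (0.87) and C1s1 (0.87) without clusters 4 and 10, and Scpep1 (0.86) and Ctsa (0.86) by Spearman's rho. Shares solved from all 2687 genes moved by at most 0.0583 points and relative levels by at most 0.000225. For the changes that are not by construction, the cause was not tested. The depth behind the fractions is unknown, so its effect on these values was not measured.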

Other observations

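Autophagy genes, whose products deliver cell contents to the lysosome, were looked up as a separate list of 6, of which 5 had an entry. In cluster 3, 3 were higher (6.33% of all genes), in cluster 7 also 3 (9.68%), and in clusters 0 and 1, 2 each (12.5% and 11.5%), with 0 lower in these 4 clusters. In cluster 6, 4 were lower (18.2% of all genes), in clusters 8 and 11, 3 each (19.4% and 38.1%), and in cluster 2, 2 (19.9%), with 0 higher. In cluster 4, 4 were lower and 1 higher, against 39.1% of all genes and 58.3% of the well-detected ones lower. Map1lc3a had the highest value, 0.69 in cluster 7 (detected in 96.7% of cells against 82.7% elsewhere), and Gabarap the lowest, -0.98 in cluster 4 (34.2% against 96.6%). Both encode small proteins of the autophagosome membrane.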
